A study of Mus musculus with 10 samples.

Results

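The genes Fcrl1, Fcrl5, Fcrla, Fcgr2b, Fcer2a, Cd22, Cd72, Siglecg and Pirb encode Fc receptor-like and inhibitory receptors of B cells. They were picked by symbol, and all 9 were found among the 55421 genes of the deposited count table and among the 16596 genes with enough reads to be tested. C57BL/6 mice of 8 to 10 weeks were immunized, and on day 10 germinal center B cells were collected from the spleen with a magnetic bead kit for the lectin PNA. Their RNA was sequenced after ribosomal RNA had been depleted. The groups were HOMO CC (2 libraries, labelled Pbrm1-/-), WT CC (3 libraries, Pbrm1+/+), HOMO CB (2 libraries, Pbrm1-/-) and WT CB (3 libraries, Pbrm1+/+). The labels do not spell out CC and CB, and they give neither the antigen, the allele of Pbrm1 nor the driver of a deletion. The letters AID beside the gene's name in the column names are not explained. Pbrm1 encodes a subunit of PBAF, a chromatin remodelling complex of the SWI/SNF family. Nothing in the labels says that libraries came from separate animals, so p-values measure the spread between libraries, which may be technical.

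B cells carry receptors that hold back signalling from the B cell receptor, the membrane antibody. Many of them have tyrosine motifs in the cytoplasmic tail (ITIMs), which the kinase Lyn phosphorylates and which then dock the phosphatases SHP-1 or SHIP1. In germinal centers, B cells divide and mutate their antibody genes in the dark zone as centroblasts and compete for antigen and T cell help in the light zone as centrocytes, and such receptors set how strongly antigen is read. Several of the 9 proteins also bind antibody, sialic acid or another surface protein, so they link signalling to immune complexes and to neighbouring cells.

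The 10 libraries held between 9954006 and 67625110 counts. Levels are given as CPM, counts scaled to the TMM-normalized library size, and a change is called where the Benjamini-Hochberg adjusted p of edgeR's quasi-likelihood test over all 16596 genes is under 0.05. The fractions differed in the genes known for the 2 zones: Cd83, which encodes an activation marker of the light zone, had a log2 change of 1.45 in HOMO and 1.31 in WT (CC over CB), and Cxcr4, which encodes the chemokine receptor of the dark zone, had one of -1.43 and -1.89 (edgeR adjusted p of at most 0.00158). All 9 markers of germinal center B cells passed 1 CPM in each library. Pbrm1 stood at 152 and 150.4 CPM in HOMO CC, 239, 239 and 250.3 CPM in WT CC, 178 and 164 CPM in HOMO CB, and 319, 309 and 312 CPM in WT CB. The HOMO libraries were below the WT libraries in both fractions, with a log2 value of -0.68 in CC (edgeR adjusted p = 0.0564) and -0.88 in CB (edgeR adjusted p = 0.00954), and counts over the whole gene do not show a deleted part. WT libraries with the number 3 stood apart from numbers 1 and 2: per degree of freedom, the chi-square between them was 53.5 and 78.5 in CB, against 6.24 between WT CB 1 and 2. In CC this was less clear, with 80.7 and 45.2, against 25.8 between WT CC 1 and 2. In both fractions number 3 was also the WT library nearest to HOMO in its neutrophil sum and GC trend, given below. Fits without number 3 thus keep the WT libraries that were less like HOMO in these values. Macrophage markers were highest in WT CC 1 and neutrophil markers in the HOMO libraries with the number 2, as given beside the genes below.

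Levels between genes were compared as CPM per kb of the gene length in the deposited table. Cd22 was the highest of the 9 in every group, with a mean of 252 CPM per kb in HOMO CC, 279 in WT CC, 166 in HOMO CB and 187 in WT CB. Its mean over all libraries lay at the 99.4th percentile of the tested genes. Fcrla, Siglecg, Fcer2a, Cd72, Fcrl1 and Fcgr2b lay between the 92.6th and the 97.7th percentile. Pirb, at the 43.0th percentile, and Fcrl5, at the 30.8th, were the lowest of the 9 in every group. Fcrl5 had only 12 reads in the library with the fewest, and its biological coefficient of variation in the fit was 51.5%, against 10.9% to 22.5% for the other 8 genes.

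**Figure D1:**
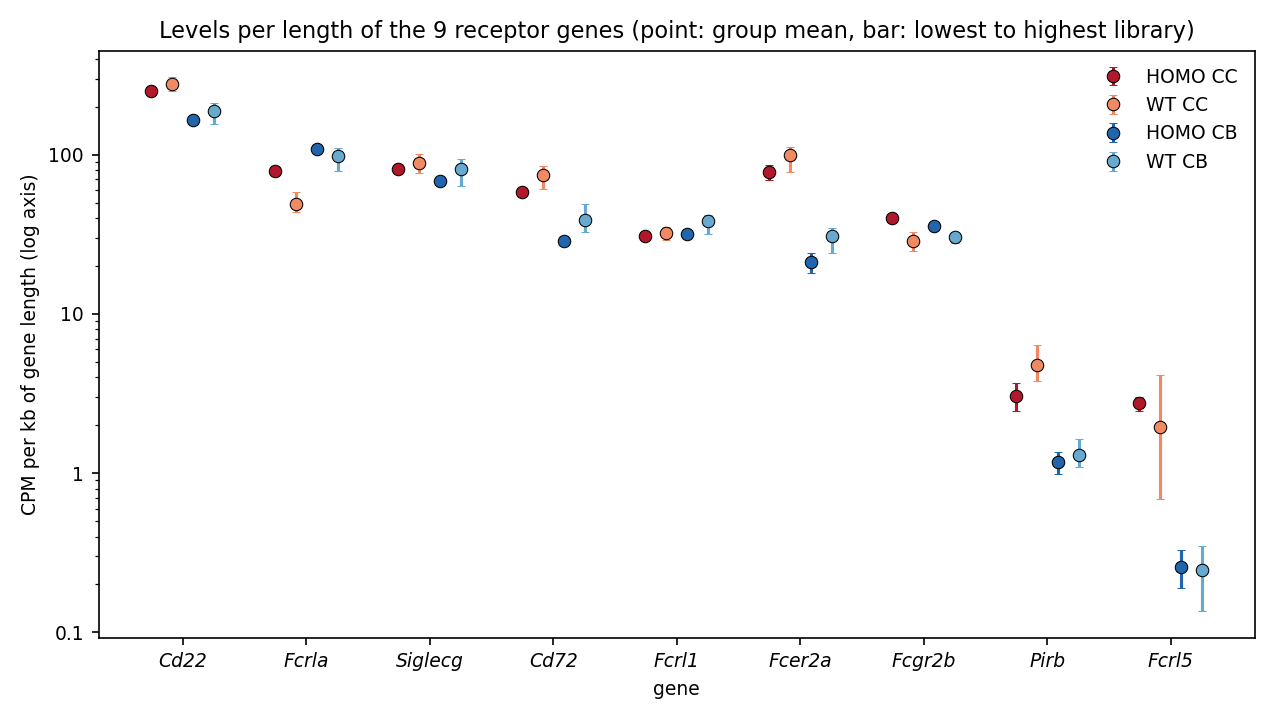
Mean level of each gene in CPM per kb of gene length (log axis) in HOMO CC, WT CC, HOMO CB and WT CB; bars run from the lowest to the highest library. Cd22 is highest and Pirb and Fcrl5 are lowest in all 4 groups, and Cd72 stands at 58.5 CPM per kb in HOMO CC, 74.1 in WT CC, 28.8 in HOMO CB and 39.1 in WT CB.

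A set of 5 receptor genes was higher in CC than in CB in both genotypes, namely Fcer2a, Cd72, Cd22, Pirb and Fcrl5. In HOMO 5 of the 9 rose and 0 fell, while 2.46% of all tested genes rose and 2.98% fell (5.45% in either direction). In WT 5 rose and 1, Fcrla, fell, while 11.6% of all tested genes rose and 12.3% fell (23.9% in either direction). The median log2 change of the 9 genes was 0.60 in HOMO and 0.58 in WT, and that of all tested genes was -0.01 and 0.01. As these are bulk libraries, fewer cells of a type and less RNA per cell cannot be told apart in any of these results.

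**Figure D2:**
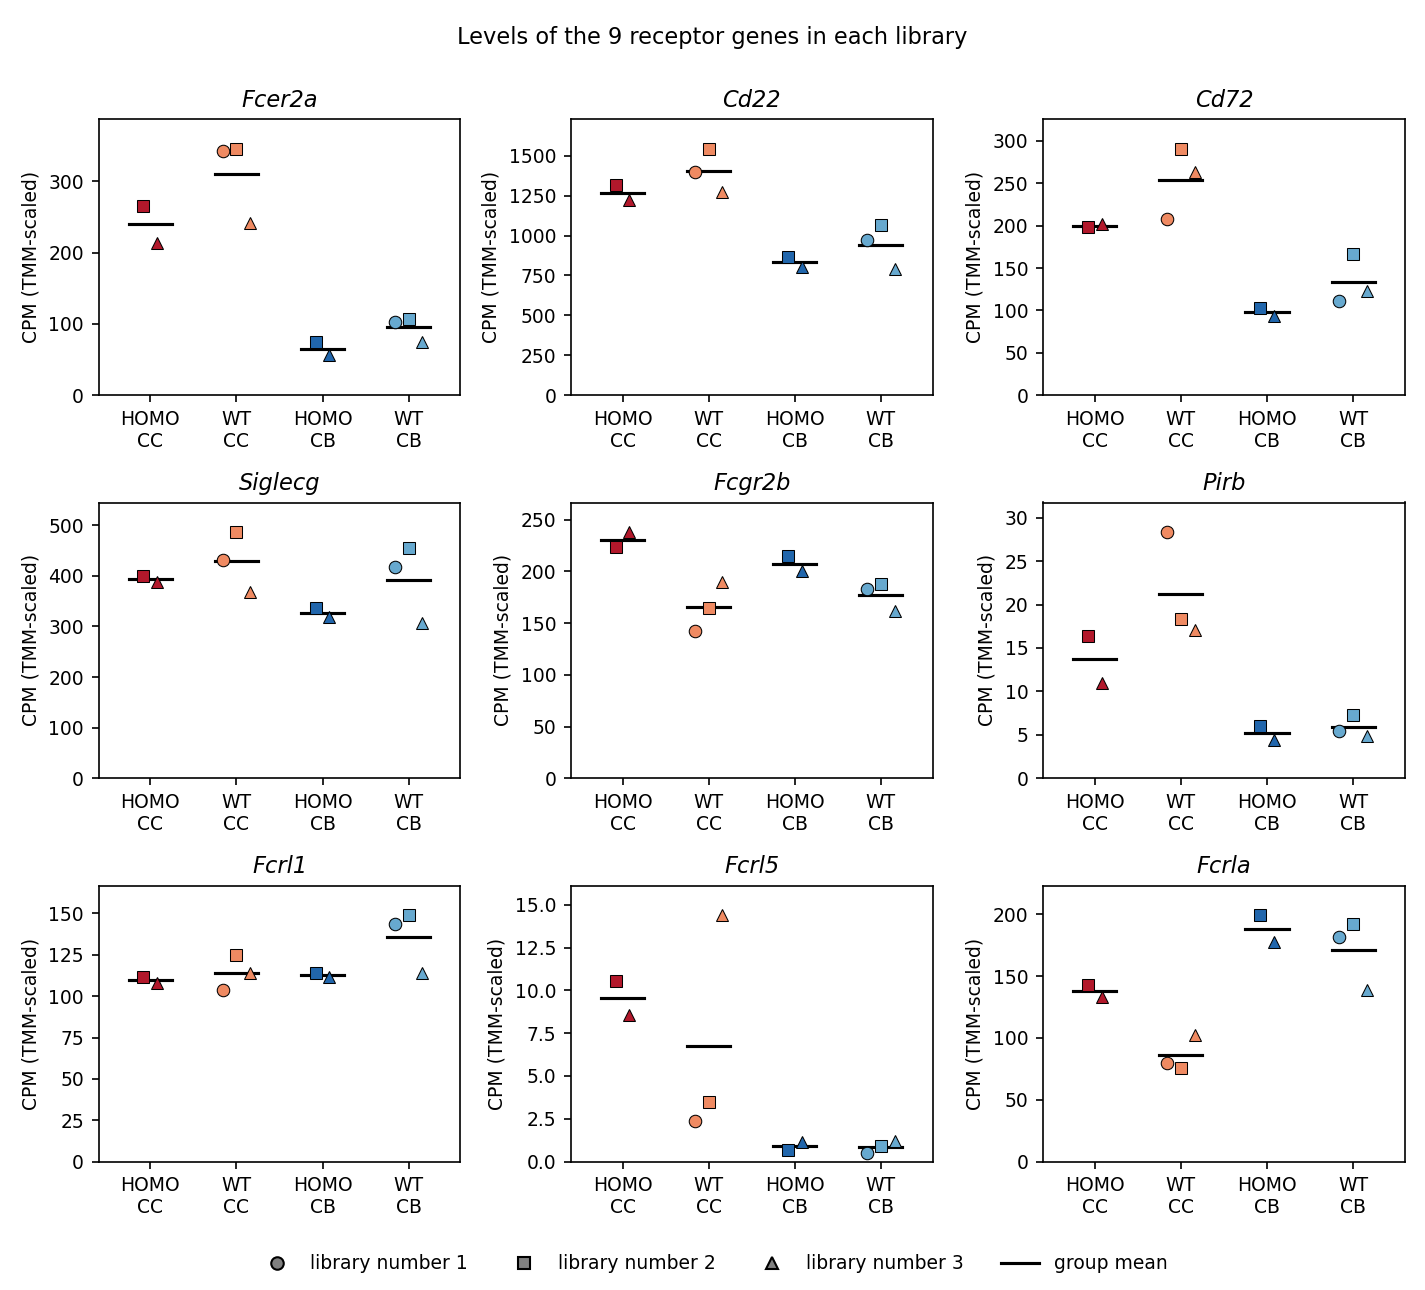
Level of each gene in CPM (linear axes from 0) in every library, by group; symbols give the library number and lines the group mean. Fcer2a lies between 213 and 346 CPM in the CC libraries and between 56.1 and 108 CPM in the CB libraries, while Siglecg and Fcrl1 overlap between most groups.

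The 250 bases before the annotated starts were read from RefSeq for GRCm38.p6, in which all 9 genes were found, Fcer2a with 3 starts and Siglecg with 2, and bases in annotated exons are not shown. Shown are the windows of 3 genes that were higher in CC in both genotypes and of Fcrla, which was lower in CC of WT, 5′ to 3′ on the strand of the gene. Capitals mark the motifs searched on both strands.
Fcer2a, inner start, chr8:3690862-3691111, minus strand: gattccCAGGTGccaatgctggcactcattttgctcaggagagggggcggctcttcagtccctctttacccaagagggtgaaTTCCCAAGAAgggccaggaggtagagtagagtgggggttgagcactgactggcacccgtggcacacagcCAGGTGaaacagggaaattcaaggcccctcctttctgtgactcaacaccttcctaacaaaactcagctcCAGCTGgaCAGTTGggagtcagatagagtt
Cd72, chr4:43454629-43454876, minus strand: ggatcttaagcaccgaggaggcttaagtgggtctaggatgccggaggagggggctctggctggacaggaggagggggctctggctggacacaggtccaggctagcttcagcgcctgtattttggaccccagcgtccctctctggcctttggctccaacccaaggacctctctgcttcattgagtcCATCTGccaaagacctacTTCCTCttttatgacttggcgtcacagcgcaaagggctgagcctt
Pirb, chr7:3720392-3720632, minus strand: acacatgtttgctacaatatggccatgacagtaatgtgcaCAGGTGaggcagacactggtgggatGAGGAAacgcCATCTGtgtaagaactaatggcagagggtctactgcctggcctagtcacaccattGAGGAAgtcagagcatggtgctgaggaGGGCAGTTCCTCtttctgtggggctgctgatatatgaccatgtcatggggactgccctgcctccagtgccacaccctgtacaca
Fcrla, chr1:170927584-170927833, minus strand: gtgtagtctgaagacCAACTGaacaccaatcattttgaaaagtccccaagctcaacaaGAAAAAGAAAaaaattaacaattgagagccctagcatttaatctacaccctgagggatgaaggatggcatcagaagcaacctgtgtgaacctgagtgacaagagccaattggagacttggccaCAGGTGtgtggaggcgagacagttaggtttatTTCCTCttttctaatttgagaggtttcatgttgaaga
Of 32851 promoter windows of 250 bases, 5.85% held TTC and GAA with any 4 bases between, the type of motif bound by the interleukin-4 factor STAT6. An E-box, CAGNTG, stood in 44.8%, and GAGGAA, the core bound by PU.1, in 23.3%. An NF-kB-type motif, GGG and TTCC with any 3 bases between, stood in 4.65%, and a repeat bound by IRF factors, GAAA and GAAA with any 2 bases between, in 2.98%. The octamer ATTTGCAT stood in 1.6%, and in no window of the 9 genes. The Fcer2a window shown, labelled inner, is that of the middle of its annotated starts. It held TTCCCAAGAA 168 bases before the start and 4 E-boxes. The windows of the other Fcer2a starts, and that of Fcrl5, are not shown and held none of the motifs. Cd72 held a PU.1 core 47 bases and an E-box 65 bases before the start. Pirb held 3 PU.1 cores, 2 E-boxes and an NF-kB-type motif, which shares bases with 1 of the PU.1 cores. Fcrla held a PU.1 core, 2 E-boxes and an IRF-type repeat 192 bases before the start. These are matches of letters only, and counts per gene do not separate the starts of Fcer2a.

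Fcer2a (ENSMUSG00000005540.10, mm10 chr8:3681737-3694175, minus strand) encodes CD23, a lectin-like receptor that binds IgE with low affinity and is induced by interleukin-4 in B cells. Its level was 266 and 213 CPM in the HOMO CC libraries 2 and 3, against 74.8 and 56.1 CPM in the HOMO CB libraries 2 and 3. In WT it was 342, 346 and 242 CPM in CC libraries 1, 2 and 3, against 103, 108 and 75.0 CPM in CB libraries 1, 2 and 3. Every CC library was above every CB library, and number 3 was the lowest of WT in both fractions. The log2 change was 1.88 in HOMO (SE 0.23, edgeR adjusted p = 0.00118), a fold of 3.67. In WT it was 1.71 (SE 0.186, edgeR adjusted p = 0.000192), a fold of 3.26. Fcer2a passed under all 22 alternatives in each genotype. Of the 9 genes, Fcer2a alone held the STAT6-type letters in the bases searched, in the window of its middle start shown above. Its other windows did not hold them. More windows were searched for Fcer2a than for any other of the 9 genes, and the letters stood in 5.85% of all promoter windows. CD23 is also abundant on resting follicular B cells, whose 10 markers summed to 904 and 867 CPM in HOMO CC, against 863 and 830.1 CPM in HOMO CB, and to 652, 665 and 994 CPM in WT CC, against 708, 716 and 883 CPM in WT CB. In both WT fractions number 3 had the highest of these sums and the lowest Fcer2a level. In both HOMO fractions number 2 was the higher in the sum and in Fcer2a. The part of follicular B cells in the Fcer2a level was not tested. Foxp1 and Bank1 were the highest of the 10 markers in each library.

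Cd72 (ENSMUSG00000028459.11, mm10 chr4:43446462-43454628, minus strand) encodes a lectin-like ITIM receptor that recruits SHP-1 and binds the semaphorin Sema4D. It had 199 and 202 CPM in HOMO CC, against 103 and 93.9 CPM in HOMO CB. In WT it had 208, 291 and 263 CPM in CC, against 111, 167 and 123 CPM in CB. CC and CB did not overlap in either genotype. Cd72 rose in CC, by 1.02 on the log2 scale in HOMO (SE 0.193, edgeR adjusted p = 0.0111) and 0.92 in WT (SE 0.157, edgeR adjusted p = 0.00225). The HOMO call was lost when any 1 HOMO library was left out, with an edgeR adjusted p of 0.0703 to 0.13. The gene overlaps Tesk1 on the opposite strand over 1603 bases. Tesk1 ranged from 26.8 to 52.7 CPM, and since the strand setting of the counting is not given in the sources used here, reads of the shared stretch cannot be told apart.

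Cd22 (ENSMUSG00000030577.14, mm10 chr7:30865402-30880342, minus strand) encodes a sialic acid-binding ITIM receptor of the Siglec family and a main docking site of SHP-1 in B cells. Its level was 1315 and 1223 CPM in HOMO CC, against 867 and 804 CPM in HOMO CB. In WT it was 1400, 1543 and 1274 CPM in CC, against 969.9, 1067 and 793 CPM in CB. The fractions did not overlap in either genotype. Cd22 rose less than the 2 lectin-like genes, with a log2 change of 0.60 in HOMO (SE 0.145, edgeR adjusted p = 0.0357) and 0.58 in WT (SE 0.119, edgeR adjusted p = 0.00603). Without WT CC 1 and 2, a fit that keeps only WT CC 3 in WT CC, the WT value was 0.44. Among fits with over 1 library per group, the WT call was lost only without both WT number 1 libraries (edgeR adjusted p = 0.0639). In HOMO it was lost when any 1 HOMO library was left out (edgeR adjusted p of 0.163 to 0.285), without WT CB 1 (0.0629) and with both WT number 1 libraries left out (0.0861). An antisense gene, Gm29439, overlaps Cd22 over 601 bases and had at most 3.04 CPM.

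Pirb (ENSMUSG00000058818.13, mm10 chr7:3711409-3720391, minus strand) encodes an ITIM receptor of B and myeloid cells that binds MHC class I molecules. It had 16.4 and 11.0 CPM in HOMO CC, against 6.04 and 4.42 CPM in HOMO CB. In WT it had 28.3, 18.4 and 17.1 CPM in CC, against 5.40, 7.28 and 4.90 CPM in CB. All CC libraries were above all CB libraries, and WT CC 1 was the highest. Pirb rose in CC, by 1.40 on the log2 scale in HOMO (SE 0.309, edgeR adjusted p = 0.0234) and 1.87 in WT (SE 0.251, edgeR adjusted p = 0.000573). Without any 1 HOMO library the HOMO call was lost, with an edgeR adjusted p of 0.0576 to 0.247.

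Since macrophages and neutrophils also carry Pirb, their markers were set beside it. The 17 macrophage markers summed to 268 and 249 CPM in HOMO CC, 1441, 586 and 319.7 CPM in WT CC, 335 and 281 CPM in HOMO CB, and 385, 415 and 325 CPM in WT CB. WT CC 1, highest in Pirb, was also highest in this sum, and Mertk, which encodes a receptor for the uptake of dead cells, reached 61.7 CPM there. Apoe alone took 212 to 399 CPM of the sum in each library, and the markers above 1 CPM numbered 9 to 12 of 17 in HOMO CC, 13 to 16 in WT CC, 5 in each HOMO CB library and 5 to 9 in WT CB. More macrophage markers were thus detected in CC, also in HOMO, where the sum was lower in CC. Without WT CC 1 and 2 the log2 change of Pirb in WT was 1.55. That fit keeps only WT CC 3 in WT CC, so it cannot separate macrophage RNA from other traits of that library. The part of the remaining macrophage RNA was not tested. The 10 neutrophil markers summed to 132 and 15.4 CPM in HOMO CC, 0.246, 0 and 15.4 CPM in WT CC, 162 and 8.03 CPM in HOMO CB, and 0.946, 0.0344 and 14.5 CPM in WT CB. The markers above 1 CPM numbered 4 to 7 of 10 in each HOMO fraction and 0 to 5 of 10 in WT, where all 10 were at 0 in WT CC 2. In both HOMO fractions the library with the higher neutrophil sum, number 2, was also the higher in Pirb. The part of neutrophil RNA in the Pirb level was not tested. Reads of near-identical Pira genes may also be counted as Pirb, and the 1 such gene found by symbol, Pira2, stayed at or below 3.37 CPM.

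**Figure D3:**
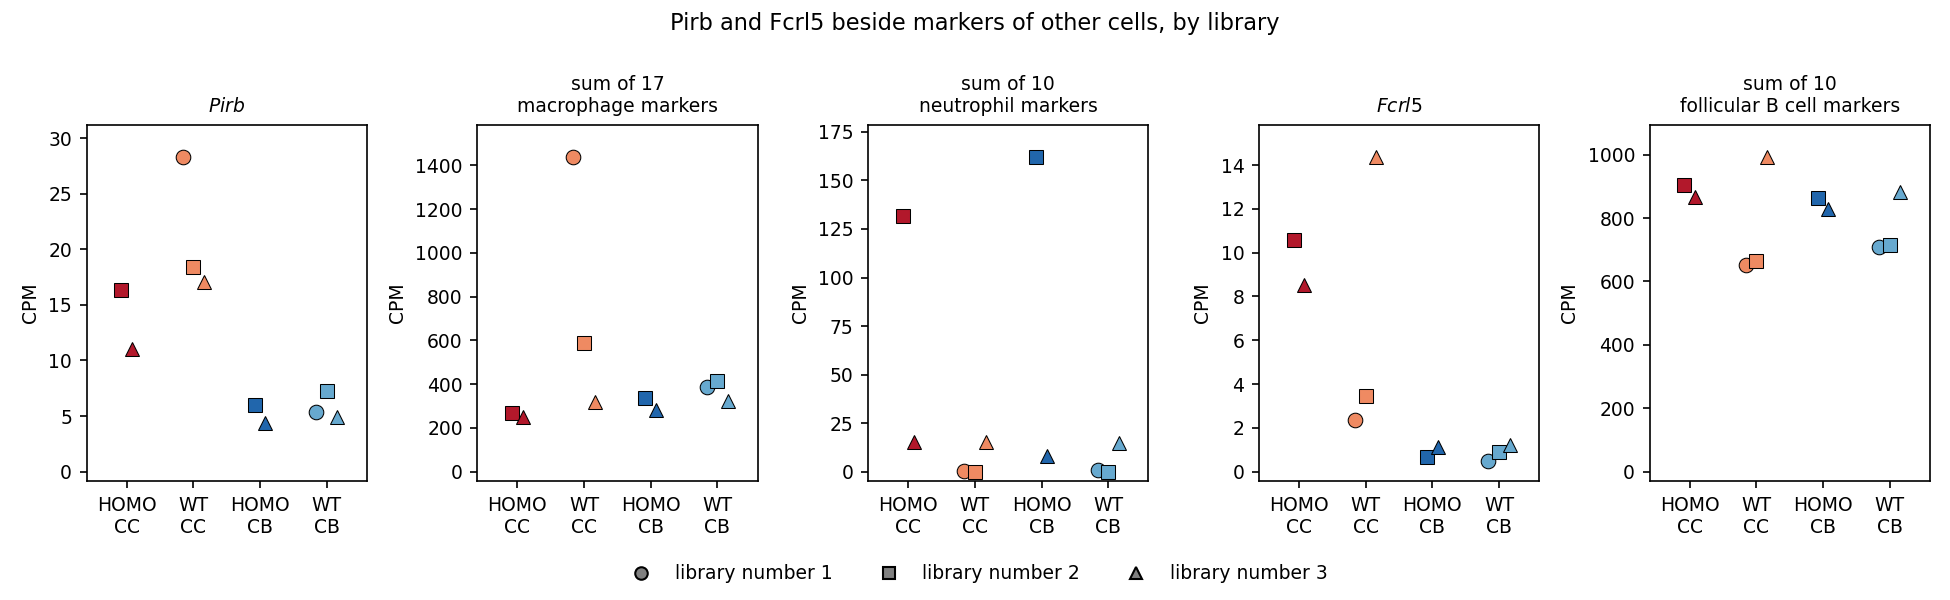
Level of Pirb, summed level of 17 macrophage markers, summed level of 10 neutrophil markers, level of Fcrl5 and summed level of 10 follicular B cell markers (CPM, linear axes) in every library, by group; symbols give the library number. WT CC 1 is highest in Pirb (28.3 CPM) and in the macrophage sum (1441 CPM), and WT CC 3 is highest in Fcrl5 (14.4 CPM) and in the follicular sum (994 CPM).

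Among the Fc receptor-like genes, Fcrl5 rose in CC, Fcrla fell in CC of WT, and Fcrl1 did not pass in either genotype. Fcrl5 (ENSMUSG00000048031.15, mm10 chr3:87435773-87500678, plus strand) encodes a surface receptor with both activating and inhibitory tyrosine motifs, known in mice from marginal zone and B-1 B cells. It had 10.6 and 8.54 CPM in HOMO CC, against 0.659 and 1.14 CPM in HOMO CB. In WT it had 2.38, 3.47 and 14.4 CPM in CC, against 0.473, 0.893 and 1.21 CPM in CB. All CC libraries were above all CB libraries, and WT CC 3 stood far above WT CC 1 and 2. The log2 change was 3.37 in HOMO (SE 0.802, edgeR adjusted p = 0.038) and 2.90 in WT (SE 0.652, edgeR adjusted p = 0.0106). The WT value was 1.72 without WT CC 3 (edgeR adjusted p = 0.0085), and the WT call was lost without both libraries of WT number 2 (3.22, edgeR adjusted p = 0.0557). In HOMO the call was also lost without WT CB 1 (edgeR adjusted p = 0.0517), WT CB 2 (0.0713), both libraries of WT number 2 (0.0665) or any 1 HOMO library (0.133 to 0.292).

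The sum of the 10 follicular B cell markers, given beside Fcer2a, did not follow Fcrl5 throughout. In WT numbers 1 and 2 the sum was lower in CC than in CB, and WT CB 3 had a higher sum than HOMO CC 3. Foxp1 and Bank1 took most of each sum and went opposite ways. In both genotypes every CC library was below every CB library in Foxp1 and above it in Bank1. From CB to CC, Foxp1 went from 326 to 191 CPM in WT 1 and from 318 to 234 CPM in WT 2. The sum therefore says little on the other markers. Of the single markers, Ccr6, which encodes a chemokine receptor of follicular and memory B cells, had 7.02 and 7.21 CPM in HOMO CC, 3.90, 3.16 and 15.2 CPM in WT CC, 0.659 and 1.07 CPM in HOMO CB, and 0.552, 0.447 and 2.15 CPM in WT CB. WT CC 3 was the highest library in Ccr6 and the HOMO CC libraries came next, as for Fcrl5. The part of such cells in the Fcrl5 level was not tested.

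Fcrla (ENSMUSG00000038421.13, mm10 chr1:170917576-170927583, minus strand) encodes a protein that stays inside the cell, where its human counterpart was found to bind immunoglobulins. Its level was 143 and 133 CPM in HOMO CC, against 199 and 178 CPM in HOMO CB. In WT it was 79.7, 75.8 and 102 CPM in CC, against 182, 192 and 138.5 CPM in CB. All CC libraries of a genotype were below its CB libraries, and WT CC was below HOMO CC. Fcrla fell in CC of WT, with a value of -0.99 on the log2 scale (SE 0.144, edgeR adjusted p = 0.000888). In HOMO the log2 change was -0.45 (SE 0.175, edgeR adjusted p = 0.180), and its adjusted p ranged from 0.000465 to 0.608 over the 22 alternatives. The WT log2 change was -0.73 without WT CC 1 and 2, a fit that keeps only WT CC 3 in WT CC. Fcrla overlaps the pseudogene Gm2962 on its own strand over 336 bases, which had 3.97 to 6.70 CPM.

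Fcrl1 (ENSMUSG00000059994.10, mm10 chr3:87376387-87402934, plus strand), unlike most of the 9, encodes a co-receptor that promotes B cell signalling. It ranged from 108 to 111 CPM in HOMO CC, 104 to 125 CPM in WT CC, 112 to 114 CPM in HOMO CB and 114 to 149 CPM in WT CB. The log2 change between CC and CB was -0.04 in HOMO (95% confidence interval -0.35 to 0.26, edgeR adjusted p = 0.925) and -0.25 in WT (-0.49 to 0.00, edgeR adjusted p = 0.138). In WT, Fcrl1 passed with the WT number as a fixed block (-0.24, edgeR adjusted p = 0.0419) but not as a random block (limma adjusted p = 0.0792), and it passed without WT CB 3 (-0.35, edgeR adjusted p = 0.0113) and with both WT number 3 libraries left out (-0.35, edgeR adjusted p = 0.00235). Over the 22 alternatives its adjusted p reached 0.635.

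Siglecg and Fcgr2b, the other inhibitory receptors, did not pass between CC and CB in either genotype. Siglecg (ENSMUSG00000030468.12, mm10 chr7:43408204-43418358, plus strand) encodes Siglec-G, a relative of CD22 that limits calcium signalling, above all in B-1 cells. It ranged from 389 to 399 CPM in HOMO CC, 368 to 486 CPM in WT CC, 318 to 336 CPM in HOMO CB and 306 to 455 CPM in WT CB. The HOMO fractions were apart and the WT fractions overlapped. The log2 change was 0.27 in HOMO (95% confidence interval -0.12 to 0.65, edgeR adjusted p = 0.463) and 0.13 in WT (-0.19 to 0.44, edgeR adjusted p = 0.572). The HOMO value of Siglecg passed with the WT number as a fixed block (0.27, edgeR adjusted p = 0.0454) but not as a random block (limma adjusted p = 0.437), and it passed with only the groups compared (0.30, edgeR adjusted p = 0.000784) and with both WT number 3 libraries left out (0.27, edgeR adjusted p = 0.0133). Over the 22 alternatives its adjusted p reached 0.838.

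Fcgr2b (ENSMUSG00000026656.15, mm10 chr1:170958617-170976547, minus strand) encodes the inhibitory receptor for IgG, which works through SHIP1 when immune complexes bridge it to the B cell receptor. It had 223 and 238 CPM in HOMO CC, against 215 and 200.1 CPM in HOMO CB. In WT it had 143, 165 and 190.1 CPM in CC, against 183, 188 and 162 CPM in CB. The fractions overlapped in WT and were apart in HOMO, with CC higher. The log2 change was 0.15 in HOMO (95% confidence interval -0.15 to 0.45, edgeR adjusted p = 0.624) and -0.10 in WT (-0.34 to 0.15, edgeR adjusted p = 0.574). It passed in HOMO with only the groups compared (0.18, edgeR adjusted p = 0.0327) and in WT without both libraries of WT number 3 (-0.27, edgeR adjusted p = 0.00858). Follicular dendritic cells also carry this receptor, and their 5 markers in the table summed to 1.33 to 2.32 CPM in HOMO CC, 1.14 to 4.89 CPM in WT CC, 1.98 to 2.69 CPM in HOMO CB and 2.54 to 3.55 CPM in WT CB. Of the 5, 3 passed 1 CPM in WT CC 1 and 1 in each other library, and Cxcl13 was at 0 in 7 libraries. Their part in the Fcgr2b level was not tested. The antisense gene Gm38204 overlaps Fcgr2b over 3175 bases and had at most 0.759 CPM.

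**Figure D4:**
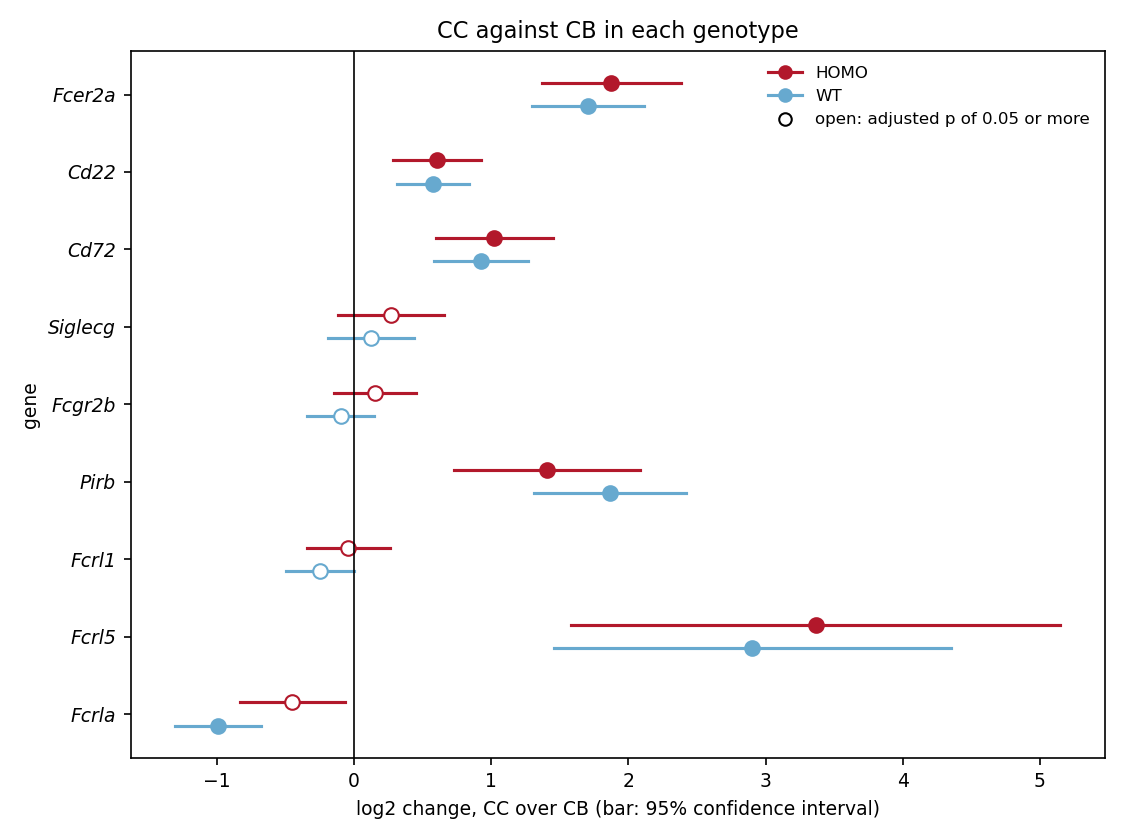
Log2 change of each gene in CC over CB, with its 95% confidence interval, in HOMO and WT; filled points have an edgeR adjusted p under 0.05. Fcer2a, Cd22, Cd72, Pirb and Fcrl5 lie above 0 in both genotypes, and Fcrla is filled in WT only, at -0.99.

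In all, the CC and CB libraries did not overlap for 9 of 9 genes in HOMO (7 above and 2 below) and for 6 of 9 in WT (5 above and 1 below). Over all tested genes, 62.0% did not overlap in HOMO (28.8% above and 33.2% below) and 34.4% in WT (16.5% above and 17.9% below), so the HOMO count stands against a high background. The HOMO calls depend on having both libraries: when any 1 of the 4 HOMO libraries was left out, 1 of the 9 genes, Fcer2a, still passed. Only the interaction tests whether a change differs between genotypes. Its log2 values ran from -0.46 for Pirb to 0.54 for Fcrla. For Fcrla the SE was 0.225 and the unadjusted p was 0.0344 (edgeR adjusted p = 1). By edgeR 0 of the 9 and 0% of all tested genes passed the interaction, and by DESeq2 0 of the 9 passed. At an unadjusted p under 0.05 there were 1 of the 9 and 434 of all 16596 genes. Without both libraries of WT number 3 the interaction passed for Fcrla (0.82, edgeR adjusted p = 0.000417) and Fcgr2b (0.42, edgeR adjusted p = 0.0234), while over the 21 alternatives the adjusted p reached 1 for both.

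Between genotypes, no receptor gene was called by edgeR in either fraction. In CC, Fcrla and Fcgr2b were higher in HOMO libraries than in all WT libraries, and Pirb and Cd72 were lower. In CB, Fcgr2b was higher in HOMO libraries than in all WT libraries, and Fcer2a and Cd72 were lower. Such separation is common in these libraries, as 35.2% of all tested genes did not overlap between HOMO and WT in CC (17.7% above and 17.4% below) and 35.2% in CB (18.8% above and 16.4% below). For HOMO against WT in CC, 0 of the 9 genes and 0% of all tested genes passed by edgeR. At an unadjusted p under 0.05 there were 3 of the 9 and 3142 of all 16596 genes, and by DESeq2 2 of the 9 and 816 of all genes passed. For HOMO against WT in CB, 0 of the 9 genes and 0.0241% of all tested genes passed by edgeR (0.00603% higher and 0.0181% lower). At an unadjusted p under 0.05 there were 2 of the 9 and 2079 of all genes, and by DESeq2 0 of the 9 and 277 of all genes passed. The median log2 change was -0.12 in CC and -0.18 in CB, against -0.03 and -0.04 over all tested genes.

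In CC, Fcrla averaged 138 ± 6.54 CPM in HOMO (SD, n = 2) and 86.0 ± 14.4 CPM in WT (SD, n = 3). The log2 change was 0.68 (SE 0.159, edgeR adjusted p = 0.111), a fold of 1.61. The gene passed by DESeq2 (0.69, adjusted p = 0.00429), without WT CC 3 (0.84, edgeR adjusted p = 0.00581), without WT CB 3 (0.69, edgeR adjusted p = 0.0449) and with no filter on low counts (0.71, edgeR adjusted p = 5.97e-06). Over the 21 alternatives its edgeR, DESeq2 or limma adjusted p ranged from 5.97e-06 to 0.585, and its log2 change from 0.43 to 0.86, with the smallest change without WT CC 1 and 2.

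Fcgr2b in CC averaged 231 ± 10.4 CPM in HOMO (SD, n = 2) and 166 ± 23.7 CPM in WT (SD, n = 3), a log2 ratio of 0.48 (SE 0.123, edgeR adjusted p = 0.133). It passed by DESeq2 (0.48, adjusted p = 0.0135), without WT CC 3 (0.595, edgeR adjusted p = 0.00705) and with no filter on low counts (0.50, edgeR adjusted p = 0.00443). Its adjusted p ranged from 5.85e-05 to 0.592 over the 21 alternatives, and without WT CC 1 and 2 its log2 change was 0.28. In CB the log2 change of Fcgr2b was 0.23 (SE 0.123, edgeR adjusted p = 0.471) and that of Fcrla 0.14 (SE 0.158, edgeR adjusted p = 0.731).

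Fcer2a was lower in HOMO on average, with 239.7 ± 37.1 CPM in HOMO CC (SD, n = 2) and 309.7 ± 59.0 CPM in WT CC (SD, n = 3), and 65.4 ± 13.2 CPM in HOMO CB (SD, n = 2) and 95.1 ± 17.6 CPM in WT CB (SD, n = 3). The log2 change was -0.37 in CC (SE 0.205, edgeR adjusted p = 0.349), where the groups overlapped. Without WT CC 1 and 2, which keeps only WT CC 3 in WT CC, it was -0.01. With both WT number 3 libraries left out it was -0.49 and passed (edgeR adjusted p = 0.0351). In CB it was -0.54 (SE 0.206, edgeR adjusted p = 0.345), and the HOMO libraries were below all WT libraries by a small margin, with 74.8 CPM as the highest HOMO and 75.0 CPM as the lowest WT value. Cd72 had a log2 change of -0.34 in CC (SE 0.176, edgeR adjusted p = 0.316) and -0.44 in CB (SE 0.176, edgeR adjusted p = 0.368), and in both fractions the HOMO libraries were below all WT libraries. In CB, Fcer2a passed without WT CB 3 (-0.69, edgeR adjusted p = 0.0497) and with no filter on low counts (-0.54, edgeR adjusted p = 0.00494), and Cd72 passed with no filter (-0.44, edgeR adjusted p = 0.0404). Over the 21 alternatives the adjusted p reached 1 for both genes in CB.

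For the remaining genes the genotype values were small or imprecise. Pirb had a log2 change of -0.63 in CC (SE 0.279, edgeR adjusted p = 0.253) and -0.17 in CB (SE 0.279, edgeR adjusted p = 0.830). WT CC 1 and 2 had the highest macrophage sums. Without them, with only WT CC 3 left in WT CC, Pirb in CC had a log2 change of -0.31. Fcrl5 had one of 0.52 in CC (95% confidence interval -0.94 to 1.99, edgeR adjusted p = 0.716), where WT CC 3 exceeded both HOMO libraries and WT CC 1 and 2 were below them, and it passed without WT CC 3 (1.72, edgeR adjusted p = 0.0267, with a range of 0.00215 to 0.958 over the alternatives). Siglecg and Fcrl1 in CB had -0.26 each (edgeR adjusted p = 0.509 and 0.419), and both passed without WT CB 3 (Siglecg -0.41, adjusted p = 0.0433, and Fcrl1 -0.37, adjusted p = 0.0329), with adjusted p up to 1 over the alternatives. Cd22 had -0.15 in CC and -0.18 in CB, with 95% confidence intervals of -0.44 to 0.14 and -0.47 to 0.12. In CB, Cd22 passed without both libraries of WT number 3 (-0.26, edgeR adjusted p = 0.0184) and had -0.077 without WT CB 2 (edgeR adjusted p = 0.944).

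**Figure D5:**
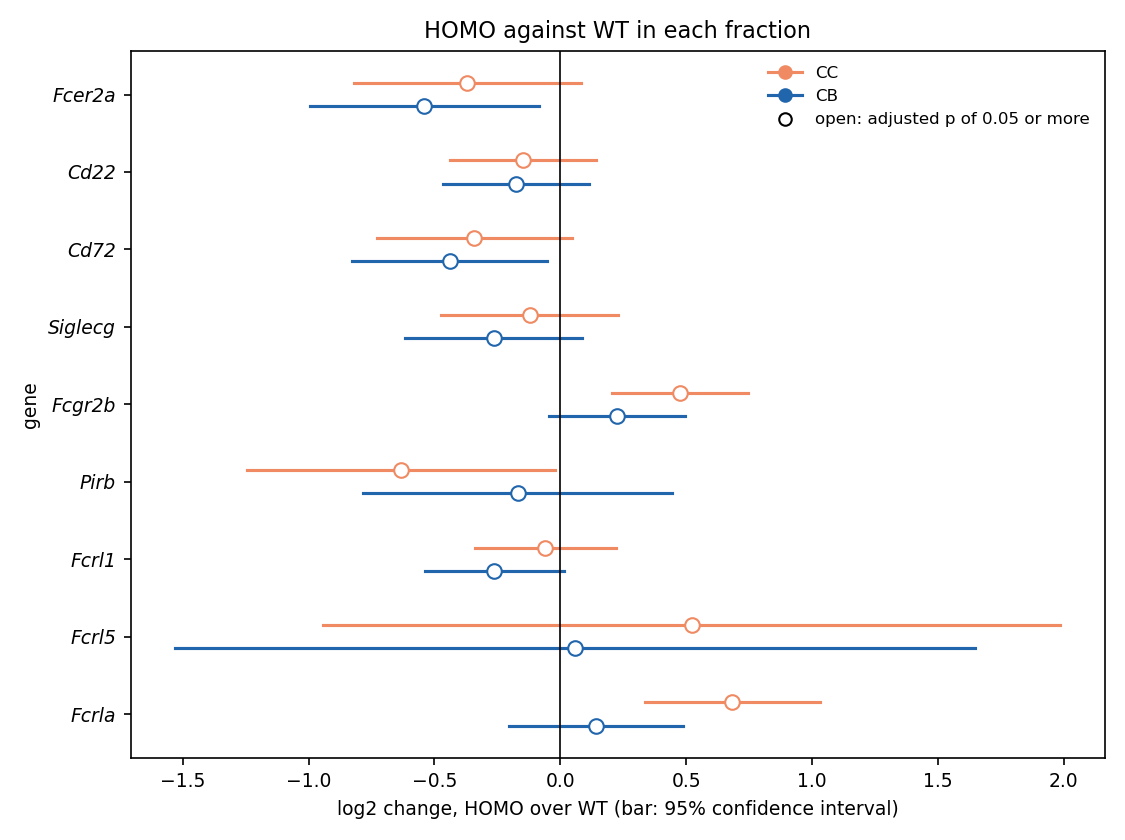
Log2 change of each gene in HOMO over WT, with its 95% confidence interval, in CC and CB; open points have an edgeR adjusted p of 0.05 or more. All points are open, and the intervals that exclude 0 are those of Fcrla (0.68), Pirb (-0.63) and Fcgr2b (0.48) in CC and of Fcer2a (-0.54) and Cd72 (-0.44) in CB.

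The genotypes also differed in how counts moved with GC content. Across 8907 genes, the deviation from the mean over libraries correlated with the GC content of the transcript by a Spearman rho of -0.175 and -0.222 in HOMO CC, 0.429, 0.549 and 0.15 in WT CC, -0.628 and -0.602 in HOMO CB, and 0.149, 0.245 and -0.455 in WT CB, where number 3 again stood apart. Cd72, Siglecg, Cd22 and Fcer2a, with a GC content of 51.6% to 56.5%, were above the median of 49% over tested genes. The other 5 genes, from Fcrl1 at 44.3% to Pirb at 48.5%, were below it. With a GC content offset the log2 change in CC was 0.66 for Fcrla and 0.38 for Fcgr2b, and none of the 9 passed between genotypes by edgeR. The offset moved the value by over 1.5 times in CC for Cd72 (-0.12), Cd22 (-0.053), Siglecg (-0.019) and Fcrl1 (-0.185). In CB it did so for Cd72 (-0.24), Cd22 (-0.080), Siglecg (-0.16), Fcgr2b (0.13) and Fcrl1 (-0.40), while Fcer2a had -0.45. With the offset, as many of the 9 genes were called as without it in all 5 comparisons.

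The partners of these receptors were followed in lists chosen by function. All counts of list members between CC and CB, here and below, stand against the shares over all tested genes. Those were 2.46% higher and 2.98% lower in HOMO, and 11.6% higher and 12.3% lower in WT. Of 13 effectors of inhibitory signalling, 1 rose in CC in each genotype: Pag1, which encodes a membrane adaptor for the kinase Csk, had a log2 change of 0.42 in HOMO (SE 0.0969, edgeR adjusted p = 0.0274) and 0.47 in WT (SE 0.0791, edgeR adjusted p = 0.00212). The median of the list was 0.06 in HOMO and 0.15 in WT. Of 10 genes for the synthesis of sialic acid, for ligands or for shedding, 0 rose and 1 fell in HOMO, and 0 rose and 3 fell in WT. St6gal1, which encodes the enzyme that makes the sialic acid linkage bound by CD22, had 379.9 and 389 CPM in HOMO CC, 315.5, 310.5 and 358 CPM in WT CC, 634 and 589.9 CPM in HOMO CB, and 629, 627 and 538 CPM in WT CB. It was lower in every CC library than in every CB library, with a log2 change of -0.67 in HOMO (SE 0.117, edgeR adjusted p = 0.00691) and -0.87 in WT (SE 0.0955, edgeR adjusted p = 0.000184), while Cd22 was higher in CC. Adam10, which encodes the protease that sheds CD23, fell in CC of WT (-0.72, SE 0.116, edgeR adjusted p = 0.00162). Cmas, which encodes the enzyme that activates sialic acid, also fell there (-0.43, SE 0.136, edgeR adjusted p = 0.0396). In HOMO the log2 change was -0.53 for Adam10 (SE 0.142, edgeR adjusted p = 0.054) and -0.46 for Cmas (SE 0.168, edgeR adjusted p = 0.1515). By DESeq2 Adam10 passed in HOMO too.

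Of 12 genes of the B cell receptor and its activating co-receptor, 2 rose and 0 fell in HOMO, and 2 rose and 3 fell in WT. Cr2, which encodes the complement receptor CD21, had a log2 change of 0.84 in HOMO (SE 0.105, edgeR adjusted p = 0.00112) and 0.81 in WT (SE 0.0854, edgeR adjusted p = 0.000142). The kinase gene Btk (-0.53, edgeR adjusted p = 0.00573) and Cd79b, which encodes a signalling chain of the B cell receptor (-0.68, edgeR adjusted p = 0.0103), fell in CC of WT. Of 15 other inhibitory receptor genes, 2 rose and 0 fell in HOMO, and 7 rose and 1 fell in WT. Cd300lf (1.09 in HOMO and 1.16 in WT) and Pecam1 (0.47 in HOMO and 0.52 in WT), which encode ITIM receptors, rose in both genotypes (edgeR adjusted p of at most 0.0473). Siglece (4.54) and Lair1 (2.77) rose in WT (edgeR adjusted p of at most 0.0143), and both were highest in WT CC 1, at 10.8 and 11.2 CPM.

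Of 8 other Fc receptor genes tested, 0 rose or fell in HOMO by edgeR (0 at an unadjusted p under 0.05, 0 by DESeq2), and 4 rose in WT, namely Fcgrt, Fcer1g, Fcgr3 and Fcgr1. Fcgr3, which encodes an activating IgG receptor of myeloid cells, had 1.16 and 0.474 CPM in HOMO CC, 10.2, 2.80 and 0.843 CPM in WT CC, 1.03 and 0.0878 CPM in HOMO CB, and 0.236, 0.172 and 0.187 CPM in WT CB. The order of WT CC 1, 2 and 3 was that of the macrophage sum for each of these 4 genes, and the part of macrophage RNA in them was not tested. Fcgr2b was lowest in WT CC 1 of all 10 libraries, and the part of macrophage RNA in its level was not tested either.

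Between genotypes, 0 genes of these lists passed by edgeR in either fraction. The counts of list members given next at an unadjusted p under 0.05 stand against 3142 of all 16596 genes for HOMO against WT in CC and 2079 for HOMO against WT in CB, and those by DESeq2 against 816 and 277 genes. The smallest p of the effectors was that of Inppl1, which encodes the lipid phosphatase SHIP2: it had 8.36 and 6.36 CPM in HOMO CC, against 18.2, 16.2 and 15.5 CPM in WT CC, and 10.7 and 9.74 CPM in HOMO CB, against 16.1, 22.7 and 18.0 CPM in WT CB. HOMO was below WT in both fractions, with a log2 change of -1.17 in CC (SE 0.196, edgeR adjusted p = 0.0895) and -0.89 in CB (SE 0.184, edgeR adjusted p = 0.17), and the gene passed by DESeq2 in both. Of the 13 effectors, 2 in CC and 3 in CB had an unadjusted p under 0.05 by edgeR, and 2 and 1 passed by DESeq2. For the sialic acid list these numbers were 3 and 1 by unadjusted p, and 1 and 0 by DESeq2. For the 12 genes of the B cell receptor list they were 1 and 1 by unadjusted p, and 1 and 1 by DESeq2, both times Cr2, with a log2 change of 0.44 in CC (SE 0.0942, edgeR adjusted p = 0.101) and 0.40 in CB (SE 0.0941, edgeR adjusted p = 0.196). Of the 15 other inhibitory receptors, 7 in CC and 0 in CB had an unadjusted p under 0.05, and 3 and 0 passed by DESeq2. Of the 8 other Fc receptors these numbers were 4 and 0 by unadjusted p, and 1 and 0 by DESeq2.

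To name genes with a like pattern, log2 CPM centred on each gene's mean was compared over the 10 libraries by the root mean square difference. Fcer2a was most like Shisa8 (0.216) and Snn (0.223), against a median of 0.977 over the 8308 genes compared. Pirb was most like Fcer2a (0.248, against a median of 0.934) of all genes compared, although its level per length was far lower. Cd72 was most like Ccdc17 (0.131) and Cd22 most like Sgsh (0.0592), against medians of 0.599 and 0.392. Fcrla was most like Ywhah (0.0998) and Fcgr2b most like Pigg (0.0804), against medians of 0.492 and 0.309. Fcrl5 was like no gene as closely, its nearest being Pml at 0.751, against a median of 1.66. The libraries share depth and GC trends, so likeness carries no statement on function or control.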

How the data were processed

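RNA-seq of 10 libraries was analysed from the whole-number read counts per gene that the authors deposited, which are not normalized. FastQC, STAR, Subread, featureCounts, R 4.2.1 and mm10 are named, without order or settings, per the submitters' processing notes. The strand setting is not given in the sources used here, nor is the treatment of multiply mapped reads. Symbols came from GENCODE M21. Because HOMO columns and HOMO titles carry different numbers, HOMO columns were placed in their group only and not paired.

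Genes were filtered with filterByExpr (minimum count 10, minimum total 15) and scaled by TMM. A negative binomial model of 4 group means was fitted to all 10 libraries with edgeR 4.0.16 in R 4.3.3 and tested by the robust quasi-likelihood F-test for 5 contrasts, with Benjamini-Hochberg adjustment over 16596 genes. The SE of a change is its size over the square root of F. The steps were also run on simulated counts with known changes, which held neither the shift of WT number 3 nor the GC trends. That run says nothing on how these traits move the calls. Alternatives used DESeq2 1.42.0, limma 3.58.1, other filters and scaling, a GC content offset and libraries left out. The fit without WT CC 1 and 2 keeps only WT CC 3 in WT CC. Leaving out a HOMO library keeps a single library in its group. In such fits that group adds nothing to the estimate of the spread. Same-numbered WT libraries deviated together (r = 0.384, 0.424 and 0.426 across genes), so the WT numbers were taken as pairs from the data, not from a label. WT CB 1 with WT CC 2 also had an r of 0.282, and WT CB 2 with WT CC 1 had 0.0789. Pairing within numbers 1 and 2 is thus less clear than that of number 3.

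The 9 genes, the other lists and the tests were chosen with earlier results of these data known. Per list and comparison, the text may name the 4 genes of lowest p that passed, or, with none, 2 genes with values only. The levels of Fcgr3, Siglece and Lair1 by library, and of Ccr6 and Mertk, were singled out after their values were seen. For likeness, only genes whose mean log2 CPM reached 3 were compared, leaving out predicted genes and pseudogenes.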

Additional observations from a re-analysis of the deposited data

How the results depend on the processing

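Of the results of single genes under the alternatives, 880 kept their direction and side of the threshold, 34 passed only under the alternative, 25 lost the call and 24 changed sign. For HOMO against WT in CC, 0 of the 9 genes passed, against 2 with no filter on low counts, 2 by DESeq2 and 0 to 4 with libraries left out. Over the table, 1314 genes were called with no filter and 816 by DESeq2, against 0. For HOMO against WT in CB 0 passed, against 2 with no filter and 0 to 4 with libraries left out, and 590 genes were called over the table with no filter and 277 by DESeq2, against 4. The 4 were reached without both libraries of WT number 3, where 5035 genes were called in CC and 4895 in CB. For CC against CB in HOMO 5 passed, against 8 with only the groups compared and 1 to 7 with libraries left out, and 3 without WT CB 1. The genes called over the table ranged from 174 to 4452, against 904. In WT 6 passed, against 5 to 8 without 1 library or both of a WT number and 4 without WT CC 1 and 2, and 858 to 7404 genes were called, against 3965. For the interaction 0 passed, against 0 to 2, and 0 to 1445 genes were called. The cause of these shifts was not tested.

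With the WT number as a fixed replicate block, 7 of the 9 genes passed between fractions in WT (Fcrl1 was added), 6 in HOMO (Siglecg was added) and 0 for the interaction, and no other call changed. As a random replicate block (limma, correlation 0.307), 6 passed in WT and 5 in HOMO, without those additions.

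The sign turned mainly for values near 0. For HOMO against WT in CC it turned for Fcrl1 without WT CC 2 (-0.124 to 0.0108 with 1 library left out) and without both WT 2 libraries (0.0106). Without WT CC 1 and 2 it turned for Fcrl5 (-0.589) and Siglecg (0.0970). In CB it turned for Fcrl5 without HOMO CB 3 (-0.409), WT CB 1 (-0.207) or both WT 1 libraries (-0.205), against up to 0.429 with 1 library and 0.465 with both WT 3 libraries left out. It also turned there for Pirb without HOMO CB 3, WT CB 2 or both WT 2 libraries (0.0157), in a range of -0.389 to 0.0649. For CC against CB in WT it turned for Fcgr2b without WT CC 1, both WT 1 libraries (0.0260) or WT CC 1 and 2 (0.107), in a range of -0.190 to 0.0032 with 1 library left out. It turned for Siglecg without WT CB 3 (-0.0219 to 0.246) or WT CC 1 and 2 (-0.0851). In HOMO it turned for Fcrl1 with the GC content offset (0.0474). For the interaction it turned for Fcrl5 without WT CC 1 and 2 (-0.638), Fcer2a without HOMO CB 3 (-0.0119 to 0.403), Cd22 without HOMO CB 3, WT CB 2, HOMO CC 2 or WT CC 3 (-0.0705 to 0.138), and Cd72 without WT CB 2 or WT CC 1 (-0.0941 to 0.213).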
